A study of Mus musculus with 2 samples.

Results

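Zfpm2, also called FOG2, is a mouse gene for a large zinc finger protein that acts as a cofactor of GATA transcription factors. The data here were the 30 peaks of YTHDF2 RNA immunoprecipitation (RIP) that overlapped its gene body, of 9271 peaks in the deposited list. They were chosen by position alone, as peaks overlapping chromosome 15 from 40655035 to 41104592 (mm10) by at least 1 bp, and the gene was picked because it held many of them. The number of peaks, their fold enrichment and their q-values all come from the RIP over input contrast that chose them. They are given as a description, with no test.

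The RNA came from wild-type C2C12 myotubes, which are mouse myoblasts of an established clonal line switched to 2% horse serum for 4 to 5 days until they fused. RNA recovered with an antibody to YTHDF2 made 1 library and input RNA made 1 library. Both carry batch label 1, and no treatment is named. An IgG control is named in the series' design and was not analysed here. Each group was thus a single library, so replicate error is unknown and the intervals below cover counting error only.

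YTHDF2 binds RNA that carries N6-methyladenosine (m6A) and recruits the deadenylase machinery that shortens poly(A) tails, mostly in the cytoplasm. FOG2 binds the amino-terminal zinc finger of GATA factors, above all GATA4, and draws in corepressors such as CtBP and the NuRD complex. It is known mainly from the heart, where it is needed for chamber and coronary vessel formation, and from the diaphragm and the gonads. It also binds the regulatory subunit of PI3 kinase.

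All 30 peaks lay in introns of the longest coding transcript, and 6 of them held a long tandem run of a short unit. The sequences of peaks 5, 15 and 29 are shown because they hold both kinds of run, and because peak 15 had the highest fold enrichment of the gene. Peaks are numbered from 1 to 30 in the direction of transcription, and sequence is that of the plus strand of GRCm38, the strand of the gene, read from RefSeq's genome. Capitals mark the longest exact run of a unit of 2 to 4 bases, and 16 bases were taken as the least for a tandem run.
Peak 5 (chr15:40692678-40692900, + strand): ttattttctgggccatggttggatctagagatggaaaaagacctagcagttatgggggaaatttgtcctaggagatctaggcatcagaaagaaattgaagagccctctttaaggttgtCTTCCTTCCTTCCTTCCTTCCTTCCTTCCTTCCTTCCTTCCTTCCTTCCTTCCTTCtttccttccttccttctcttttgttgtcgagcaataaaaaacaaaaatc
Peak 15 (chr15:40776320-40776522, + strand): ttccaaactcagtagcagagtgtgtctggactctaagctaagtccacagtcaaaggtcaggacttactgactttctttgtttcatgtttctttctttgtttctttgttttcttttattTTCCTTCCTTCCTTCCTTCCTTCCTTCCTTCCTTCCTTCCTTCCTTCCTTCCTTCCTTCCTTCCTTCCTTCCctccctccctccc
Peak 29 (chr15:41062329-41062551, + strand): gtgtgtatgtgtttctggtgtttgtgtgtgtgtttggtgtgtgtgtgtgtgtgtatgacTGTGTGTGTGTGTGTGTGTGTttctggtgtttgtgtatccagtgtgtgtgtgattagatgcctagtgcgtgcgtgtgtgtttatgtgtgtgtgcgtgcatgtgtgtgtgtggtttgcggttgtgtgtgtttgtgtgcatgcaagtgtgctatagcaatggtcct

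Most other peaks held no such run. The 3 of highest fold enrichment that had no tandem run and held GGACT are shown next, with GGACT in capitals. GGACT is a common form of the m6A consensus. Repeats marked in the genome sequence covered 97.3% of peak 27, which rested on 13 RIP fragments.
Peak 7 (chr15:40710755-40710976, + strand): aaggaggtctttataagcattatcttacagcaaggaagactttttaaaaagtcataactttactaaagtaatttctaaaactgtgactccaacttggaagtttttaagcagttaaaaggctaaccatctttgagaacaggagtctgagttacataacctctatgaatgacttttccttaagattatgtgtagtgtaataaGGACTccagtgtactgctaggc
Peak 11 (chr15:40746014-40746207, + strand): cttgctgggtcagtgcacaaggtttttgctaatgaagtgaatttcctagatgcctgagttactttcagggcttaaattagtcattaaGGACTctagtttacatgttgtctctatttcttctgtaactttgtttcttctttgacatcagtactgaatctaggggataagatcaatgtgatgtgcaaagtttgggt
Peak 27 (chr15:41045984-41046169, + strand): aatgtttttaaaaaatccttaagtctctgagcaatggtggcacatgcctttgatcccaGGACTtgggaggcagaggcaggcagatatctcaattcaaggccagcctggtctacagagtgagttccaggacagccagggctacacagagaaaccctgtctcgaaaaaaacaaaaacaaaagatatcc

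Across the gene the fold enrichment ran from 2.41 to 8.30, with a median of 4.83 (95% order-statistic interval 4.37 to 5.42, n = 30 peaks). Fold enrichment is the RIP pileup at the summit plus 1, over the local input background plus 1, as the peak caller gave it. The median over all 9271 peaks was 4.40 (quartiles 3.34 and 5.64). The Zfpm2 summits had a median of 24 RIP fragments (order-statistic interval 20 to 30, range 10 to 128), against 29 over the whole list. Their median input background was 3.86 (order-statistic interval 2.49 to 5.00, range 1.08 to 41.0), against 5 over the whole list. The intervals of both medians reach the values of the whole list. At backgrounds between the Zfpm2 quartiles, 2.23 and 5.75, the median fold enrichment was 4.92 over 2857 listed peaks. It was 5.11 over the 14 Zfpm2 peaks in that range.

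A fold enrichment of 4 or more was reached by 23 of the 30 peaks, 76.7% (Wilson 95% interval 59.1 to 88.2), where 59.6% of all peaks reached it. A q-value of 1e-05 or less was reached by 21 of the 30, 70% (52.1 to 83.3), where 71.5% of all peaks reached it. Both shares come from the contrast that chose the peaks, and nothing is read from them. The library depths are unknown, since the deposited files give no totals.

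The highest peak was peak 15, with 45 RIP fragments over a background of 4. Its fold enrichment was 8.30 (95% counting interval 6.11 to 11.0). It ranked 284 among the 9271 peaks and had the smallest q-value of the gene, with −log10 q of 21.4. It lay 2243 bp from exon 3, in intron 3, and carried a run of 72 bases of the unit TTCC. Its summit lay 49 bp from that run, in the sequence before it.

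Peak 26, in intron 5, had a fold enrichment of 6.99 (4.59 to 10.3) from 24 fragments over a background of 2.23. Its summit fell inside a run of 31 bases of the unit GT. Peak 5, in intron 1, followed at 6.86 (4.89 to 9.38) with 37 fragments over 4, and its summit lay 5 bp from a run of 56 bases of the unit CTTC. Peak 7, in intron 1, stood at 6.28 (3.96 to 9.51) with 20 fragments, and peak 14, in intron 2, at 5.73 (3.53 to 8.87) with 18. Neither of these held a tandem run. The intervals of these 5 peaks overlap, so their order was not resolved at this depth.

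Peak 24 had the second smallest q-value (−log10 q of 16.4) and a low fold enrichment, 2.77 (2.31 to 3.29). It held 128 RIP fragments, rank 253 of the whole list, over an input background of 41.0. The next highest background in the gene was 9, at peak 21. C and T made up 76.2% of its bases and marked repeats covered 86.5%. Input was thus high there as well as RIP, and its part in the call was not tested. By q-value it was followed by peak 5 (15.1), peak 2 (11.0) and peak 8 (10.5).

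**Figure D1:**
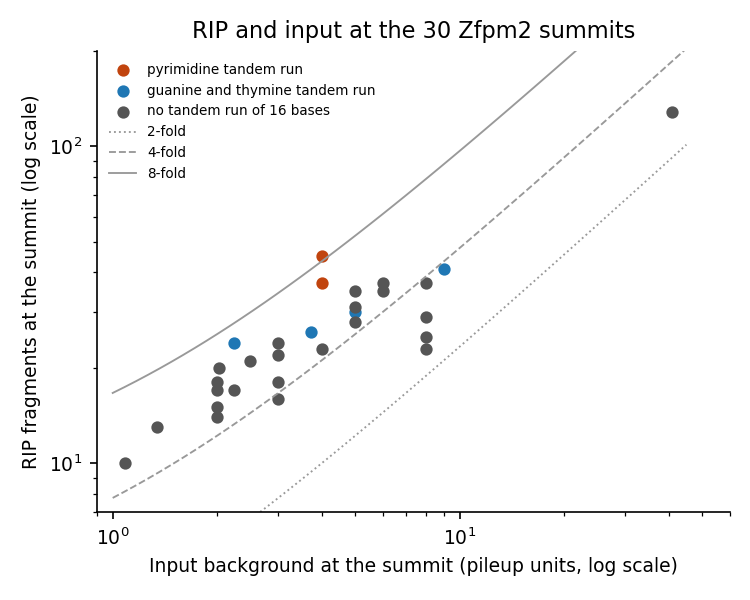
RIP fragments at the summit (vertical, log scale) against input background (horizontal, log scale) for the 30 Zfpm2 peaks, coloured by tandem run, with grey lines of equal fold enrichment. Peak 24 stands alone at 128 fragments over a background of 41.0, while the other 29 lie at backgrounds of 9 or less.

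Along the gene the peaks were spread over 5 of 7 introns. Intron 1 held 11 peaks in 97.3 kb, at 12.2, 18.4 and 24.1 kb from the start site for peaks 2 to 4 and up to 91.1 kb for peak 11. Their fold enrichments ran from 2.61 to 6.86 with a median of 5.17. Intron 2, only 20.99 kb long, held 3 peaks: peak 12 at 4.30, peak 13 at 3.85 and peak 14 at 5.73. Intron 3 held 5 peaks in 96.4 kb. They included the highest of the gene, peak 15, and the lowest, peak 19, at 2.41 (1.57 to 3.56). Peak 16 stood at 4.64, peak 17 at 4.82 and peak 18 at 3.01.

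Intron 4 held 4 peaks in 84.0 kb. Peak 20 had a fold enrichment of 5.70, peak 21 of 3.79, peak 22 of 5.04 and peak 23 of 4.53. Intron 5, the longest at 141 kb, held 7, and these were the most varied in depth. Beside peaks 24 and 26 they were peak 25 at 4.37, peak 27 at 5.43, peak 28 at 5.65, peak 29 at 4.67 and peak 30 at 4.80. Peak 30 rested on only 10 fragments over the lowest background of the gene, 1.08, and its interval ran from 2.55 to 8.43. That background was also the lowest of the whole list. Introns 6 and 7, of 3.02 and 1.57 kb, held no listed peak.

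**Figure D2:**
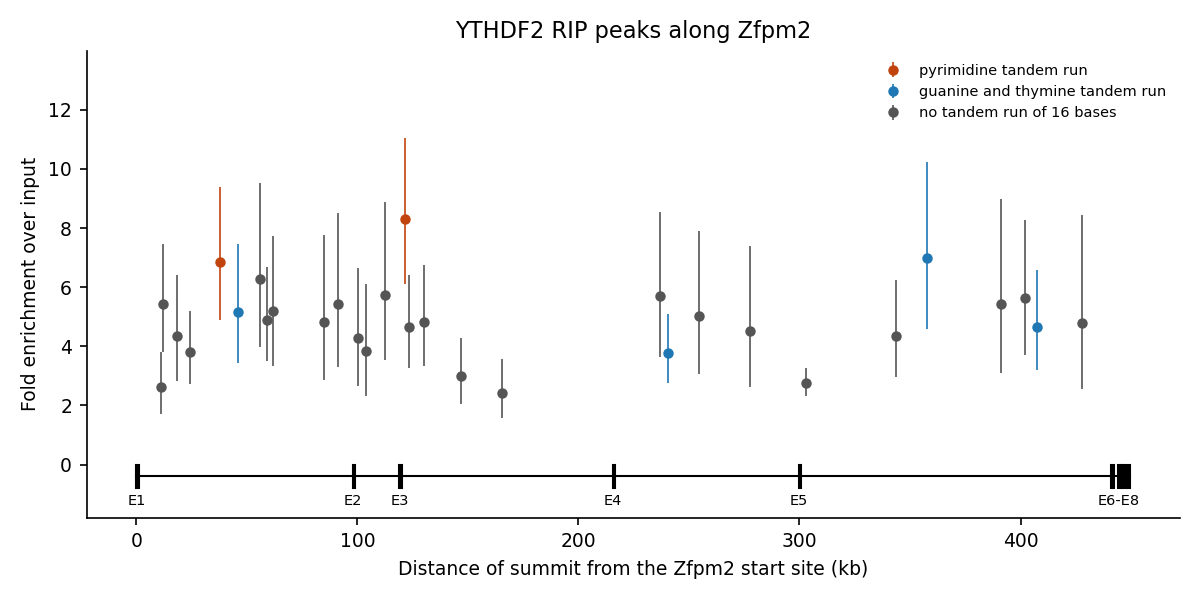
Fold enrichment over input (vertical, with 95% counting intervals) of each Zfpm2 peak against the distance of its summit from the start site (horizontal, kb), coloured by tandem run. Black boxes are the 8 exons of the longest coding transcript, with short exons widened to be visible, and no peak lies on them.

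Peak density was highest in the introns near the 5′ end, as counts. It was 11.3 peaks per 100 kb in intron 1 (exact Poisson 95% interval 5.64 to 20.2) and 14.3 in intron 2 (2.95 to 41.8). It was 5.19 in intron 3 (1.68 to 12.1), 4.76 in intron 4 (1.30 to 12.2) and 4.96 in intron 5 (1.99 to 10.2). These intervals overlap and take peaks as independent. Introns 1 and 2, which make up 21.6% and 4.67% of the body, held 14 of the 30 peaks. The widest stretch without a summit was 71.55 kb, from peak 19 in intron 3 across exon 4 to peak 20 in intron 4. The median distance between neighbouring summits was 9222 bp (range 965 to 71550), and peaks 1 and 2 were the only pair with less than 1000 bp between their edges.

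**Figure D3:**
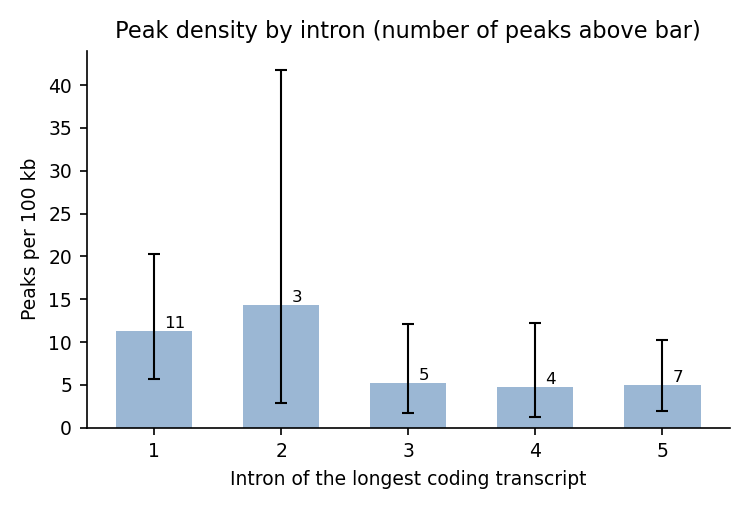
Peaks per 100 kb (vertical) in introns 1 to 5 (horizontal), with exact Poisson 95% intervals and the number of peaks printed above each bar. Introns 1 and 2 stand at 11.3 and 14.3, and introns 3 to 5 at 4.76 to 5.19, with overlapping intervals.

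Fold enrichment did not follow the position in the gene. Its Spearman correlation with the distance from the start site was -0.00378 over the 30 peaks, which share both libraries. It was -0.192 for RIP fragments and -0.218 for input background. The 19 peaks before the midpoint of the body had a median fold enrichment of 4.83 and the 11 after it 4.80. Their median input backgrounds were 4 and 2.49. Fold enrichment was lower where background was higher (Spearman correlation -0.585), a relation that the ratio's construction and the caller's threshold partly fix.

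The exons of the longest coding transcript make up 4981 bp, 1.11% of the 449558 bp body, and no peak touched them. The last exon, of 3508 bp, holds most of the coding sequence, the stop codon and the 3′ UTR, the region where m6A is known to be densest in mRNA. No listed peak lay there, and the nearest, peak 30, ended in intron 5. None of the 30 peaks was in the authors' table that pairs peaks with genes. That table has columns for start codon, stop codon, coding sequence and the 2 UTRs, and Zfpm2 is not named in it. The share of all listed peaks in that table is not given here, so nothing is read from this count. The list holds only peaks past the caller's threshold, so weaker signal in exons is not known.

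Peak 1 was an exception for another transcript. It lay on chromosome 15 from 40666165 to 40666607, and 190 of its 443 bases fell in the first exon of a shorter coding transcript, a 5′ UTR exon from 40664990 to 40666354. Its summit was inside that exon, 78 bp before its end. It held 25 fragments over a background of 8, and its fold enrichment was among the lowest of the gene, 2.61 (1.73 to 3.8). With exons of all 4 annotated transcripts, 29 of 30 peaks, 96.7% (83.3 to 99.4), were in introns only. The labels' protocols word the library steps after the pulldown for DNA and name no removal of genomic DNA, so whether the intron fragments were all copied from RNA was not tested. Peak 25 also overlapped Gm49524, a short transcript on the same strand whose coding status GENCODE leaves to be checked, so its signal could be of either.

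The peaks overlap the gene by the rule that chose them, and they stopped short of both its ends. Peak 1 was 11.2 kb after the start site, and the previous peak on the chromosome, in Lrp12, lay at -735 kb from that site. It rested on 10 fragments, and its fold enrichment was 4.24 (2.25 to 7.44). Peak 30 was 21.8 kb before the end of the gene, and the next peak was 367 kb beyond it, in Oxr1. That peak had 15 fragments over a background of 1.08, the lowest of the whole list, and a fold enrichment of 6.96 (4.11 to 11.2). There were 0 peaks within 200 kb on either side.

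Of the 15 other protein-coding genes within 2 Mb, 6 had a peak. Angpt1, the gene for the vessel-stabilising ligand angiopoietin 1, had 37. Oxr1, an oxidation resistance gene of 414 kb, had 6 (1.45 per 100 kb, 0.532 to 3.16). Abra, an actin-binding gene of striated muscle, Fzd6, a Wnt receptor, Lrp12 and the mitochondrial folate carrier Slc25a32 had 1 each. The other 9, among them the presynaptic gene Rims2 and the dihydropyrimidinase Dpys, had none. Over the genome 15.0% of 21951 protein-coding genes had a peak over the body.

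With 30 peaks Zfpm2 ranked 7 by number among protein-coding genes, level with Ghr, the growth hormone receptor. By density it had 6.67 peaks per 100 kb (4.50 to 9.53) and ranked 973, since short genes with 1 peak have high densities. Among the 767 protein-coding genes with bodies of 0.5 to 2 times its length (225 to 899 kb) it ranked 11. Of those genes 36.2% had at least 1 peak, with a median of 3 peaks and 0.831 per 100 kb among those that had any. This standing is how the gene came to be chosen. Both libraries were bulk, so a transcript in more cells and more RNA per cell cannot be told apart, and expression of these genes is not known here.

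The genes of like length nearest to it in density were Eya4, with 17 peaks and 6.86 per 100 kb, Ssbp2, with 18 and 7.40, and Mid1, with 19 and 5.93. Eya4 is a transcriptional coactivator, Ssbp2 binds single-stranded DNA and Mid1 is a microtubule-associated ubiquitin ligase. Their log2 densities over that of Zfpm2 were 0.04, 0.15 and -0.17. Thsd7a had 10.3 per 100 kb (7.5 to 13.8) from 45 peaks and Angpt1 14.7 (10.3 to 20.2) from 37. Cacna2d1, a calcium channel subunit gene of much the same length, had 5.91 (3.86 to 8.66) from 26. The intervals of Zfpm2 and Cacna2d1 largely overlap, and that of Angpt1 lies above that of Zfpm2.

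**Figure D4:**
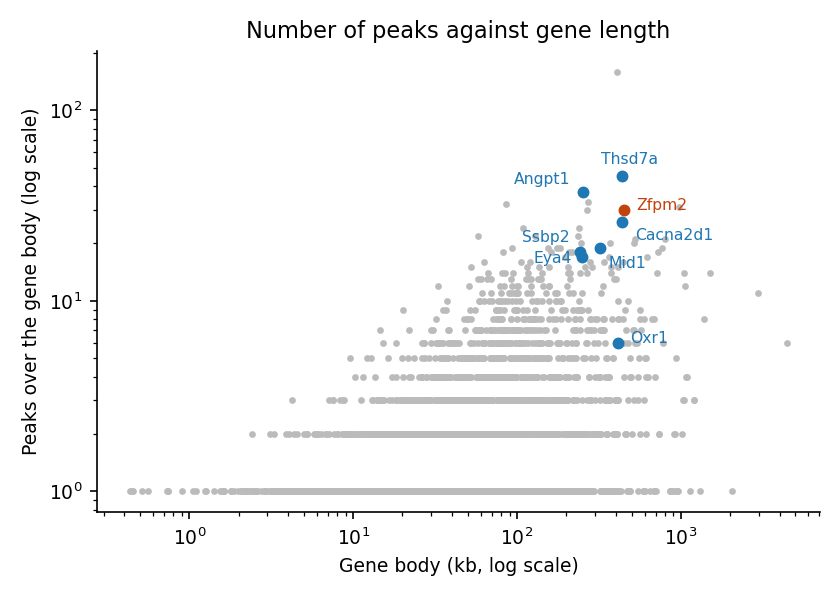
Number of peaks over the gene body (vertical, log scale) against body length (horizontal, kb, log scale) for protein-coding genes with at least 1 peak. Zfpm2 (orange, 30 peaks) lies near Cacna2d1 (26) and below Thsd7a (45), while the neighbour Oxr1 of similar length has 6.

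A lean of peaks towards the 5′ end was seen in many genes of like length, with exceptions. In Zfpm2 19 of 30 summits, 63.3% (45.5 to 78.1), lay before the midpoint of the body. The share was 68.9% (54.3 to 80.5) in Thsd7a, 67.6% (51.5 to 80.4) in Angpt1 and 61.5% (42.5 to 77.6) in Cacna2d1. The intervals of Zfpm2 and Cacna2d1 include 50%, and those of Thsd7a and Angpt1 do not. Over the 40 genes of like length with at least 10 peaks, Zfpm2 included, the median share was 61.5% (range 20 to 93.8), and 28 had more than 50% there. It was 57.9% (36.3 to 76.9) in Mid1, 50% (29.0 to 71.0) in Ssbp2 and 47.1% (26.2 to 69.0) in Eya4. These intervals also include 50%. In fold enrichment Zfpm2 lay near the middle, and 19 of these genes had a lower median than its 4.83. The median background at its summits, 3.86, was close to that in Cacna2d1, 3.44, and Eya4, 4.09. It was 6.88 in Thsd7a and 8 in Angpt1.

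Sequence was not used to choose the peaks. On the strand of the gene Zfpm2 peaks held less adenine than the windows of equal width on either side, by a median of -3.89 percentage points (order-statistic 95% interval -9.63 to -1.99). Adenine was higher in the peak for only 4 of the 30, and equal in peak 16. Guanine was higher by 2.09 (0.125 to 7.0), in 21 of 30 peaks. Cytosine differed by 1.42 (-1.74 to 5.11) and thymine by 0 (-2.96 to 3.87), and these intervals include 0. Over 6560 intron peaks of all protein-coding genes the differences were alike: -4.52 for adenine and 3.35 for guanine. The intervals take peaks as independent, and sequence content can also change how reads are amplified and aligned, which was not tested.

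**Figure D5:**
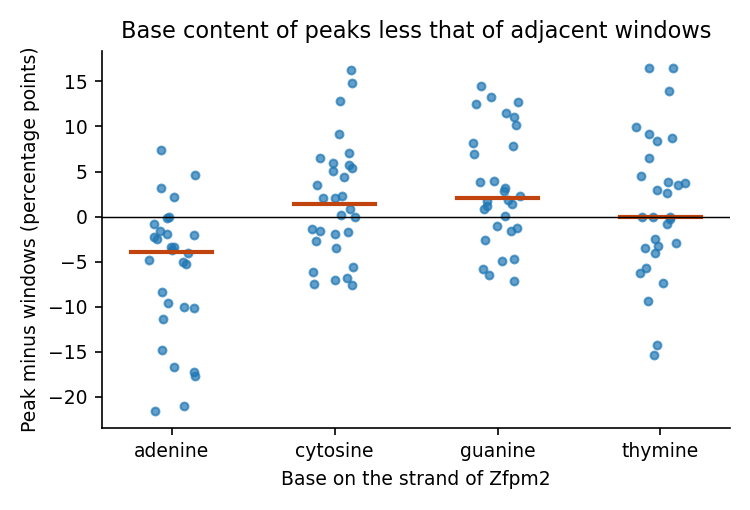
Percentage of each base in a Zfpm2 peak minus the mean of its adjacent windows (vertical, percentage points), for each base on the strand of the gene (horizontal). Each dot is 1 of the 30 peaks and the orange bar the median, which is -3.89 for adenine and 2.09 for guanine.

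Tandem runs of at least 16 bases were in 6 of 30 peaks, 20% (9.51 to 37.3), and in 5 of 60 windows beside them, 8.33% (3.61 to 18.1). Among 6567 intron peaks of all genes the share was 14.3%, and in their windows 8.51%. On the strand of the gene the Zfpm2 runs were made of C and T in peaks 5 and 15 and of G and T in peaks 6, 21, 26 and 29, and none was the complement, of A and G or A and C. All intron peaks leaned the same way, with 8.16% holding a G and T run and 0.868% an A and C run, where their windows had 2.57% and 1.58%. The 6 peaks with a run had a median fold enrichment of 6.01 (range 3.79 to 8.30), and the other 24 had 4.81 (2.41 to 6.28). The ranges overlap. Peaks 5 and 15 share the unit TTCC, in shifted phase, and reads of such runs can be placed at more than 1 site, whose part was not tested.

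Repeats marked in the genome sequence covered a median of 24.9% of the bases of a Zfpm2 peak. Peaks 4 and 22 lay wholly in such repeats, and peaks 16, 18, 20 and 30 held none. More than 50% was covered in 11 of 30 peaks, 36.7% (21.9 to 54.5), and in 11 of 60 windows, 18.3% (10.6 to 29.9). The shares were 41.4% in all intron peaks and 21.6% in their windows. The 11 repeat-rich peaks had a median fold enrichment of 5.04 and the other 19 a median of 4.82, with input backgrounds of 4 and 3.72.

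GGAC, the core of the commonest m6A consensus, was in 17 of 30 peaks on the strand of the gene, 56.7% (39.2 to 72.6). It was in 25 of 60 windows beside them, 41.7% (30.1 to 54.3), and in 43.8% of all intron peaks. On the opposite strand it was in 16 of 30 Zfpm2 peaks, 53.3% (36.1 to 69.8), and in 49.7% of all intron peaks. Its density was 2.97 per kb in peaks and 2.36 per kb in windows, a ratio of 1.26 (exact binomial 95% interval 0.703 to 2.20, from 22 and 35 sites). On the opposite strand the ratio was 1.35 (0.761 to 2.36). Both intervals include 1. Over all intron peaks the ratio was 1.11 (1.07 to 1.15) on the strand of the gene and 1.27 (1.22 to 1.32) on the opposite strand, which was thus the higher. GGACT, which is GGAC followed by T, was in 9 of 30 peaks, 30% (16.7 to 47.9), and in 20% of windows. Of all intron peaks 18.8% held it. On the opposite strand GGACT was in 8 of 30, 26.7% (14.2 to 44.4). There it was in 21.7% of windows and 15.3% of all intron peaks. Peaks with GGAC on the strand of the gene had a median fold enrichment of 4.90 and those without it 4.67. A match marks these letters only, since methylation was not measured.

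FOG2 acts through partners, and 31 of them or of their relatives were looked up, a list chosen with earlier results of these data known. A peak over the body was found for 9 of the 31, 29.0% (16.1 to 46.6), beside the 15.0% of all protein-coding genes. When the fold enrichment of the peak had to reach 4, it was found for 5 of the 31, beside 10.7% of all protein-coding genes. A peak touching an exon was found for 2 of the 31, Ep300 and Pik3r1, where 7.01% of protein-coding genes had one. None of the 7 FOG and GATA genes had a peak: Zfpm1, the FOG paralogue of blood cells, and Gata1 to Gata6. Body lengths differ between genes and were not matched.

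Corepressors had 6 of 15 genes with a peak, all in introns only. That was 40% (19.8 to 64.3), beside 15.0% of all protein-coding genes. The deacetylase Hdac1 had 1 peak with a fold enrichment of 6.33 (4.00 to 9.60), and Hdac2 1 with 3.85 (2.31 to 6.10). The NuRD subunit Gatad2b had 3, with the highest at 4.37 (2.96 to 6.24). The NuRD helicase Chd4 had 1 at 4.34 (3.41 to 5.44), Mbd2 1 at 3.51 (2.90 to 4.22) and the histone chaperone Rbbp7 1 at 3.26 (2.41 to 4.32). Both CtBP genes, the Mta genes, Rbbp4, Chd3, Gatad2a and Mbd3 had none.

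Among the other 9 partners, 3 had a peak, 33.3% (12.1 to 64.6). The acetyltransferase gene Ep300, also on chromosome 15, had 4 peaks, of which 1 touched an exon, with the highest at 4.87 (3.11 to 7.31). Pik3r1, the regulatory subunit of PI3 kinase that FOG2 binds, had 2, with the highest at 5.27 (4.36 to 6.31) from 116 fragments. The nuclear receptor gene Nr2f2 had 1 at 2.81 (2.35 to 3.33) over a background of 41.0. The median of the highest fold enrichment per gene was 4.34 over the 9 genes of the whole partner list with a peak. It was 5.13 over all 3287 protein-coding genes with a peak. Of 8 myotube markers 1 had a peak, 12.5% (2.24 to 47.1), beside 15.0% of all protein-coding genes. It was Ttn, with 3 over a body of 279 kb, and a missing peak says nothing of expression.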

How the data were processed

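The series' design text names Bowtie for alignment to mm10 and MACS for calling peaks. The submitters' processing notes add deepTools, HOMER, Picard, DiffBind, Trim Galore and FastQC. Of these, no version is given in the sources used here. Library steps in the labels' protocols are worded for DNA. Per the file headers, the deposited peak list holds for each peak a summit pileup (signal), a fold enrichment (linear ratio) and −log10 p-values and q-values. These scores are the authors' own. The gene table the authors deposited was used only to see whether it lists the Zfpm2 peaks.

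Each of the 9271 pileups was a whole number of steps of 0.9 (tolerance 1e-06), and a step was taken to be 1 RIP fragment. Input background was computed from pileup and fold enrichment. With it a Poisson tail gave the deposited p-value of all 30 peaks (tolerance 0.01 in −log10). For the interval of a fold, the exact 95% Poisson limits of its RIP fragments took the place of the pileup over a fixed background, and PCR copies are not independent molecules.

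Peaks were set against GENCODE M21 gene models and RefSeq's GRCm38 sequence, the build mm10 names, by overlap of at least 1 bp, in Python 3.11.15 with pysam 0.24.0 and scipy 1.17.1. Windows lay 1 peak width to either side and were left out if they met another peak. Assignment and sequence counts were tested on simulated data. Members, partner list and tests were chosen with earlier results of these data known. Named peaks were the 5 of highest fold enrichment, the 5 of smallest q-value, the first and last, and those touching an exon. Named genes were partners with a peak, genes within 2 Mb and the 3 of like length nearest in density. Other peaks and genes were named after their values were seen. Some peak sequences are not reported here.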

Additional observations from a re-analysis of the deposited data

How the results depend on the processing

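Of 37 recomputed values, 28 stayed within the 95% interval of the reported value, or within 1.5 times a count or density. Peaks numbered 23 when the fold had to reach 4, 21 when the q-value had to be 1e-05 or less, and 29 with peaks under 1000 bp apart merged. The share in introns became 100% under both filters and with exons of the longest coding transcript only, since each leaves peak 1 out or places it in an intron. The rank by density became 600 when the fold had to reach 4, a filter that left 2347 genes with a peak instead of 3287. The cause of that change was not tested. Among genes of like length the rank was 11, by construction. Partner genes with a peak numbered 5 when the fold had to reach 4 and 2 when a peak had to touch an exon, both stricter by construction. The median fold enrichment was 6.30 without the 1 added to pileup and background, which lowers ratios above 1. The share of peaks with GGACT, the longer motif, was 30%. No paired analysis was possible because each group had 1 library, and for the same reason no library could be left out. Depth limits single folds: at 10 fragments the interval of peak 30 ran from 2.55 to 8.43.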

Other observations

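Trps1, a gene for an atypical GATA-type zinc finger repressor that was not on the partner list, held 22 peaks in 236 kb of chromosome 15, or 9.33 per 100 kb, of which 2 touched an exon. Its median fold enrichment was 3.67. It was named after its value was seen.

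Of the 8 protein-coding genes with 30 or more peaks, 3 lay on chromosome 15: Zfpm2, Angpt1 and Ghr. The whole chromosome held 5.29% of all peaks and 3.58% of protein-coding genes. These 3 genes were also named after their values were seen.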
